A study of Mus musculus with 4 samples.

Results

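Rmrp, Rpph1, Rn7sk, Terc, Rny1 and Rny3 encode 6 structured noncoding RNAs that work in ribonucleoprotein particles and are not translated. They were taken by GENCODE M21 symbol, with the Ensembl version removed, from the 37311 gene identifiers of the count tables, and each symbol matched 1 identifier. The cells were J1 mouse embryonic stem cells (strain 129S4/SvJae), grown without feeders in serum and leukaemia inhibitory factor. All 4 libraries came from cells in which hairpin RNAs (sheIF4a3-2 and sheIF4a3-3) targeted eIF4A3, a helicase that anchors exon junction complexes to spliced RNA. Per the labels, puromycin at 1 μg/mL lasted 3 days, and cells were lysed on day 4.5 after 1 min in 0.1 mg/mL cycloheximide. Which hairpin a replicate received is not given in the sources used here. The compared groups were ribosome protected fragments (RPF, the RNA pieces left after nuclease digestion) and total RNA, with 2 biological replicates each. No library of cells that kept eIF4A3 was analysed here, so no value below measures an effect of the knockdown.

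RNase MRP and RNase P are related enzymes built on the RNAs of Rmrp and Rpph1. The first cuts precursor ribosomal RNA in the nucleolus, and the second removes the leader of precursor transfer RNAs. The 7SK RNA (Rn7sk) holds the elongation kinase P-TEFb inactive, Terc carries the template for telomere repeats, and the Y RNAs (Rny1 and Rny3) are bound by the Ro60 protein. RNA polymerase III makes all of them except Terc. Ribosome profiling counts any fragment that survives digestion and purification, so a footprint count of a noncoding RNA does not by itself show that ribosomes sat on it.

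The sequences of the RNAs, from the GENCODE M21 transcripts (GRCm38) and read 5′ to 3′ with T for U, are shown because reads that match more than 1 gene bear on the counts. Rny1 and Rny3, both on chromosome 6, are shown together because they are close relatives with opposite results. Capitals mark identical runs of at least 8 bases in their alignment, which had 71.4% identity over 112 columns.
Rny1: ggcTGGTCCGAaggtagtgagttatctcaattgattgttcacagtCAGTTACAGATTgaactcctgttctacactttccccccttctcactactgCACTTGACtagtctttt
Rny3: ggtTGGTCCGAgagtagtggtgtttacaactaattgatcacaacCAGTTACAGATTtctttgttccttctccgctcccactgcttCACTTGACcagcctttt

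Rmrp (chromosome 4) is the most counted RNA of the RPF libraries, and its annotation overlaps Ccdc107 on the other strand. Capitals mark the 28-base stretches that also occur, on the opposite strand, in transcripts of Ccdc107.
Rmrp: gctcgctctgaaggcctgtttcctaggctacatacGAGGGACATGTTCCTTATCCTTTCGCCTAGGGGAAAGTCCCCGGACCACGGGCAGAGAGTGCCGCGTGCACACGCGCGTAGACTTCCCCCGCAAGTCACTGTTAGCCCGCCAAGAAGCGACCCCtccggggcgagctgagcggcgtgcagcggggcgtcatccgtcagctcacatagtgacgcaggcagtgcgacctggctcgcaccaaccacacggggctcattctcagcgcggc

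Rpph1 (chromosome 14) has annotated relatives named Rprl1, Rprl2 and Rprl3. Rprl3 is shown with it because the counts of this pair went different ways. Bases 1 to 260 of each are shown, and capitals mark the 28-base stretches that the pair shares.
Rpph1: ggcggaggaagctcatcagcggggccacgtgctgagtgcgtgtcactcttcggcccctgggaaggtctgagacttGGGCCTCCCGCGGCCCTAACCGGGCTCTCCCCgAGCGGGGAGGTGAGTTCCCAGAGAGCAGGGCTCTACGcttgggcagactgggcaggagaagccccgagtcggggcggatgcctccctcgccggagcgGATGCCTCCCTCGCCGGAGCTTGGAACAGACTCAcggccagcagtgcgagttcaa
Rprl3: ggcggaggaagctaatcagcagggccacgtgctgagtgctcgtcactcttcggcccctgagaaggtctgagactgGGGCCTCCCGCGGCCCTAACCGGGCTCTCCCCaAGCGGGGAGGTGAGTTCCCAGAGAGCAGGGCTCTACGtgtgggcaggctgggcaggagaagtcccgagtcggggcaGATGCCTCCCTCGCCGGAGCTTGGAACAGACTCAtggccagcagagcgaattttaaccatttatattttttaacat

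Rn7sk (chromosome 9) is the RNA with the lowest ratio of RPF to total RNA among the 6. Bases 1 to 120 are shown, with GATC in capitals, the sequence repeated in the stem that the inhibitor protein HEXIM1 binds. It occurs 3 times, first at base 13 and last at base 64, and reads the same on both strands. It is present in 28.5% of 3529 annotated transcripts of small structured RNA classes.
Rn7sk: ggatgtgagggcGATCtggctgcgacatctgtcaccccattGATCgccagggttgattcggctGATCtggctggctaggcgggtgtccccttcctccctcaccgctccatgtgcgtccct

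Terc (chromosome 3) is the least abundant. The start of its model, bases 1 to 90, is shown for the telomere template, with CTAACCCT in capitals. Of the same 3529 transcripts, 10 (0.283%) hold CTAACCCT on the transcript's strand. In Terc it starts at base 29, and its reverse complement was not found in any of the 6 RNAs.
Terc: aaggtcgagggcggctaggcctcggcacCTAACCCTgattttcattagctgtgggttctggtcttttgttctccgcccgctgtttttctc

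Library depth was 9434987 (RPF replicate 1), 7615277 (RPF replicate 2), 8969965 (total RNA replicate 1) and 8218020 (total RNA replicate 2) gene counts. The targeted gene, Eif4a3, had 1640, 1325, 1229 and 975 counts in that order, at 203 ± 13.3 CPM in RPF and 110.5 ± 13.9 CPM in total RNA (SD, n = 2). With no library of unmodified cells beside them, these counts do not check the label. The stem cell label was checked on 8 pluripotency markers, which summed to between 4443 and 5211 CPM (normalised counts scaled to a common library total). The summed level of 8 fibroblast markers was 12.4 to 15.6 CPM, and that of 7 extraembryonic endoderm markers was 32.4 to 42.5 CPM. Of the fibroblast markers, Dcn had 0 counts in all 4 libraries. Pdgfrb had 47, 26, 54 and 54 counts and Thy1 41, 33, 31 and 25, in the same order of libraries. Annotated ribosomal RNA genes, mitochondrial ones included, took 4.78% and 4.44% of RPF and 0.768% and 0.922% of total RNA gene counts. Reads with more than 1 alignment, which HTSeq tallies apart, were 21.05% and 20.6% of RPF and 16.6% and 16.5% of total RNA alignments. The part of the ribosomal RNA share and of these reads in the results below was not tested.

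The 6 RNAs split by fraction. Rmrp and Rny1 were higher in RPF than in total RNA, Rn7sk, Rny3 and Terc were lower, and Rpph1 did not pass. Their summed share of gene counts was 6.3 ± 0.35% in RPF and 2.44 ± 0.19% in total RNA (SD, n = 2 libraries per fraction). Rmrp alone carried the RPF sum: without it the other 5 took 0.85 ± 0.189% of RPF and 1.75 ± 0.0885% of total RNA counts, the opposite order. Of the counts on small noncoding RNA genes (3795 identifiers), the 6 held 77.1% and 69.1% in RPF and 78.9% and 78.7% in total RNA.

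The comparison asks whether each RNA took a larger or smaller part of the footprint library than of the total RNA library. It was fitted with edgeR's quasi-likelihood test over 13809 genes, two-sided, with Benjamini-Hochberg adjustment at 0.05. All 6 RNAs passed the count filter. The ratio below is log2 of RPF over total RNA, ± SE, and levels are CPM normalised by trimmed mean of M-values (TMM). Of the 6 RNAs, 2 were higher and 3 lower, against 20.5% higher and 21.2% lower over all tested genes. The TMM-normalised CPM ranges of the fractions did not overlap for any of the 6, with 3 above and 3 below. Without that scaling, as shares of gene counts, those of Rpph1 did overlap. Over all tested genes 34.9% lay above and 37.9% below without overlap, so with 2 libraries a fraction this is common. With library size as the only scaling, 1223 genes were higher and 4961 lower, and the 5 calls among the 6 RNAs were the same. P-values rest on 2 replicates a fraction, with a spread that the fit moderates across all tested genes. Bulk libraries cannot tell fewer cells with an RNA from less of it per cell.

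**Figure D1:**
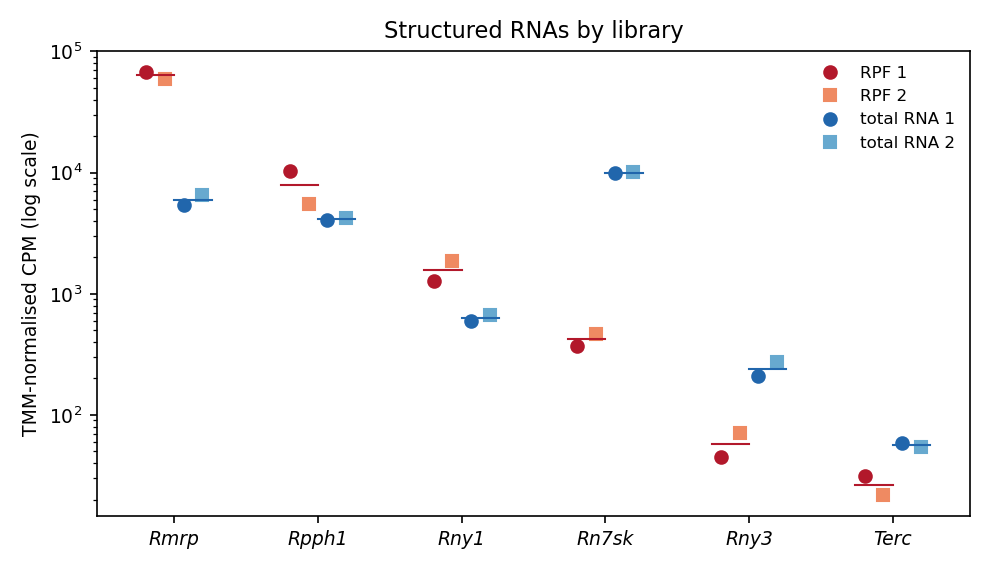
TMM-normalised CPM (log axis) of each structured RNA in the 4 libraries; points are libraries and short lines are the means of the 2 libraries of a fraction. Rmrp stands at 59240 to 67868 CPM in RPF against 5453 to 6485 in total RNA, and Rn7sk at 373 to 466 against 9863 to 10138.

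Among the 6, the RNAs of the processing enzymes had the highest RPF levels. Rmrp was counted 524903 times in RPF replicate 1 and 406320 times in RPF replicate 2, against 55693 and 62839 times in the total RNA libraries (replicate 1 first, here and below). It was the most counted of all genes in both RPF libraries and the 4th in both total RNA libraries. Its share of gene counts was 5.56% (Wilson 95% interval 5.55 to 5.58%) and 5.34% (5.32 to 5.35%) in RPF. In total RNA the share was 0.621% (0.616 to 0.626%) and 0.765% (0.759 to 0.771%). Both RPF libraries lay far above both total RNA libraries, and the intervals, which cover counting error only, were narrower than the gap between replicates. The mean share was 7.87-fold higher in RPF, and the fitted ratio was 3.41 ± 0.47 (10.6-fold, adjusted p = 0.00205 by edgeR). That ratio ranked 161st of the 13809 tested genes.

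Rmrp counts were not split with a second Rmrp entry. The 28-base stretches of Rmrp all recur in another GENCODE M21 identifier, which bears the same symbol and has no row of counts here. Apart from it, 97 of 244 stretches (39.8%) lie in 1 gene, Ccdc107 (coiled-coil domain containing 107), on the opposite strand. Ccdc107 had 128, 136, 110 and 136 counts in the same order of libraries, at most 0.216% of those of Rmrp. Reads that fall on overlapping genes enter neither gene's count where strand is not used. The strand setting is not given in the sources used here.

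Rpph1 had 79567 and 37907 counts in RPF and 41722 and 41024 counts in total RNA. Its shares were 0.843% and 0.498% in RPF and 0.465% and 0.499% in total RNA, so the shares of the fractions overlapped. RPF replicate 1 stood apart: on the TMM scale the RPF replicates differed 1.86-fold and the total RNA replicates 1.04-fold. The ratio was 0.93 ± 0.36 (adjusted p = 0.0734 by edgeR), with a level of 7907 ± 3367 against 4159 ± 105 CPM (SD, n = 2). The ratio changes with 1 library. Without RPF replicate 2 it was 1.32, and without RPF replicate 1 it was 0.42. Each of these fits has 1 RPF library, so the spread between RPF replicates is not in its test. DESeq2's test called Rpph1 higher in RPF (0.95, adjusted p = 0.00135). Of 13 alternatives 4 made that call, the fit without RPF replicate 2 among them.

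Its relatives did not move as one. Rprl3, 76.6% identical to Rpph1 over 320 alignment columns, had 2747 and 1288 counts in RPF and 9231 and 8719 counts in total RNA. That is 3.45% and 3.4% of the Rpph1 counts in RPF and 22.1% and 21.3% in total RNA, a 6.33-fold difference of the mean percentages. The percentages hardly differed between replicates, although Rpph1 itself differed 1.86-fold between the RPF libraries. Rprl3 was lower in RPF (ratio -1.73 ± 0.30, adjusted p = 0.00436) and Rprl2 higher (2.8 ± 0.43, adjusted p = 0.00296). Rprl1 did not pass (1.75 ± 0.61, adjusted p = 0.054). Of the 28-base stretches of Rpph1, 7.53% recur in Rprl3 and 3.42% in Rprl2. At 50 bases, the sequenced read length, 68.1% of the stretches recur in 1 other gene. The longest aligned run of Rpph1 with Rprl3 was 37 bases and with Rprl2 32, so neither run reaches 50. How far fragment length bears on the counts of these genes was not tested. The overlapping gene Ccnb1ip1, on the same strand in GENCODE M21, holds 70.5%, yet it had 115, 74, 237 and 205 counts. How reads common to these genes were assigned was not tested, so the Rpph1 and Rprl values are uncertain to that extent.

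The ratio of Rmrp to Rpph1 within a library does not depend on scaling. There were 6.6 and 10.7 Rmrp counts per Rpph1 count in RPF and 1.33 and 1.53 in total RNA. The fractions did not overlap, and the log2 difference was 2.56 ± 0.36 (SE, n = 2 against 2). The RNAs share no more than 9 bases in a row and were 49.7% identical over a global alignment.

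Rn7sk showed the reverse pattern. It had 2886 and 3193 counts in RPF and 100742 and 98233 counts in total RNA. In total RNA it ranked 1st and 2nd of all genes, and in RPF 508th and 340th. The shares were 0.0306% (0.0295 to 0.0317%) and 0.0419% (0.0405 to 0.0434%) in RPF, and 1.12% and 1.2% in total RNA. The RPF libraries both lay far below the total RNA libraries, 32-fold in mean share. The ratio was -4.58 ± 0.31 (adjusted p = 0.000355 by edgeR), the 113th lowest of all tested genes.

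Annotated genes that share sequence with Rn7sk had few counts, and they are no separate measurement of it. Of the 28-base stretches of Rn7sk, 74.3% recur in 37 other genes, all of the misc_RNA class, which hold from 1 to 214 of them each. These 37 genes together had 35 and 21 counts in RPF and 742 and 736 counts in total RNA, at most 1.21% of Rn7sk in any library. A read that aligns to both Rn7sk and such a gene is counted for neither, so these counts do not bound the reads lost. How many Rn7sk reads were lost this way was not tested. Of them 11 passed the count filter, and all 11 were lower, while 26 were below it. Genes kept by that filter through total RNA alone had to differ, so their count supports nothing. By summed counts 31 of the 37 had more in total RNA, 3 had more in RPF and 3 had none. Gm23037 had 4 and 10 counts in RPF against 196 and 173 in total RNA, while Gm23755 had 4 and 2 against 0 and 0.

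Terc was rare in both fractions, with 241 and 151 counts in RPF and 597 and 528 counts in total RNA. Its shares were 0.00255% (0.00225 to 0.0029%) and 0.00198% (0.00169 to 0.00233%) in RPF and 0.00666% (0.00614 to 0.00721%) and 0.00642% (0.0059 to 0.007%) in total RNA. The counting intervals of the fractions did not meet. The level was 26.6 ± 6.47 against 56.5 ± 2.8 CPM (SD, n = 2), and the ratio was -1.08 ± 0.20 (adjusted p = 0.00533 by edgeR). None of its 396 stretches of 28 bases occurs in another annotated gene, so exact sharing of that length among annotated genes does not touch this count. Near matches and shorter stretches were not searched.

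Rny1 had 9785 and 12814 counts in RPF and 6117 and 6497 counts in total RNA. Its shares were 0.104% and 0.168% in RPF and 0.0682% and 0.0791% in total RNA, with both RPF libraries above both total RNA libraries. The ratio was 1.3 ± 0.24 (2.47-fold, adjusted p = 0.00555 by edgeR). Rny3 had 348 and 488 counts in RPF and 2148 and 2639 in total RNA. Its shares were 0.00369% and 0.00641% against 0.0239% and 0.0321%, and both RPF libraries were the low ones. The ratio was -2.06 ± 0.25 (4.16-fold lower in RPF, adjusted p = 0.00139).

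The Y RNAs therefore stood in different proportion in each fraction. There were 28.1 and 26.3 Rny1 counts per Rny3 count in RPF, but 2.85 and 2.46 in total RNA. The proportion differed 10.3-fold, and its log2 difference was 3.36 ± 0.12 (SE), the smallest SE of all 15 pairs of the RNAs. Both genes end in the same 4 T, and the longest run they share is 12 bases, shown above as CAGTTACAGATT. Among annotated genes, Rny3 shares no 28-base stretch with another gene. Rny1 shares 34 of 85 (40.0%) with Gm26168, which had 9, 10, 3 and 4 counts, and 1 with Gm26124. At 50 bases 12 of 63 Rny1 stretches (19.0%) recur in 1 other gene.

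Of the 15 pairs of the RNAs, 14 had within-library ratios that did not overlap between fractions. Over all 91753831 pairs of tested genes with counts in every library, 70.8% did not overlap, so non-overlap is common. The pair that overlapped was Rpph1 and Rny1, with 8.13 and 2.96 Rpph1 counts per Rny1 count in RPF and 6.82 and 6.31 in total RNA. The largest log2 difference was that of Rmrp and Rn7sk, with 181.9 and 127.3 Rmrp counts per Rn7sk count in RPF and 0.553 and 0.64 in total RNA (8.0 ± 0.28 SE). With 2 libraries against 2 the exact two-sided permutation test cannot go below 0.333. That value was reached by 14 pairs (0.357 after Benjamini-Hochberg adjustment over 15), so no pair could pass 0.05.

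**Figure D2:**
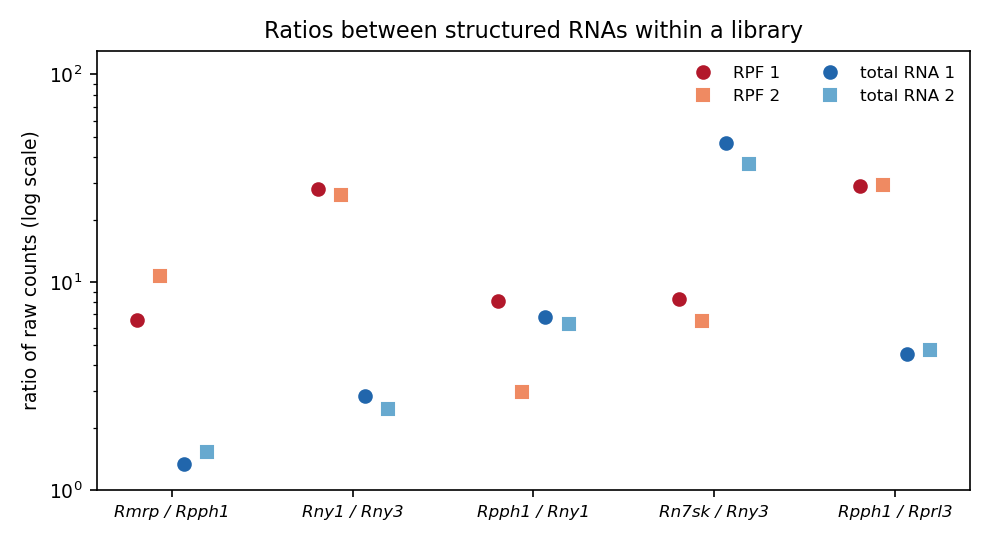
Counts of the first RNA per count of the second within each library (log axis), for 5 pairs; points are libraries. Rny1 per Rny3 stands at 26.3 to 28.1 in RPF and 2.46 to 2.85 in total RNA, while Rpph1 per Rny1 overlaps between fractions; Rpph1 per Rprl3 stands at 29.0 and 29.4 in RPF and 4.52 and 4.71 in total RNA.

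Levels were set between genes per length, as TMM-normalised CPM per kb of exon (SD, n = 2). In RPF the order was Rmrp (234517 ± 22513), Rpph1 (24788 ± 10553), Rny1 (13988 ± 3807), Rn7sk (1267 ± 197), Rny3 (569 ± 181) and Terc (62.9 ± 15.3). In total RNA it was Rn7sk (30214 ± 587), Rmrp (22026 ± 2694), Rpph1 (13039 ± 330), Rny1 (5667 ± 452), Rny3 (2366 ± 430) and Terc (134 ± 6.62). The order of Rmrp, Rpph1, Rny1, Rny3 and Terc was the same in both fractions, and Rn7sk was the RNA that changed place. Only Rpph1 and Rny1 came near each other in RPF, at 17325 to 32250 against 11296 to 16681 CPM per kb. Their difference was not tested. Short RNAs offer few start positions (75 stretches of 28 bases in the 102 bases of Rny3), which per-length levels do not correct.

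What the higher and the lower RNAs share was described from their sequences. GC content was 64.2% in Rmrp and 43.8% in Rny1, both higher in RPF, and 58.0% in Rn7sk, 67.1% in Terc and 45.1% in Rny3, all lower. Rpph1 had 67.1%. The minimum free energy predicted by RNAfold ran from -26.6 kcal/mol per 100 bases in Rny3 to -47.8 in Terc, with Rmrp at -39.2 and Rn7sk at -33.8. The paired share of bases was between 60.7% and 71.5%. None of these measures put the higher and the lower RNAs on separate sides.

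**Figure D3:**
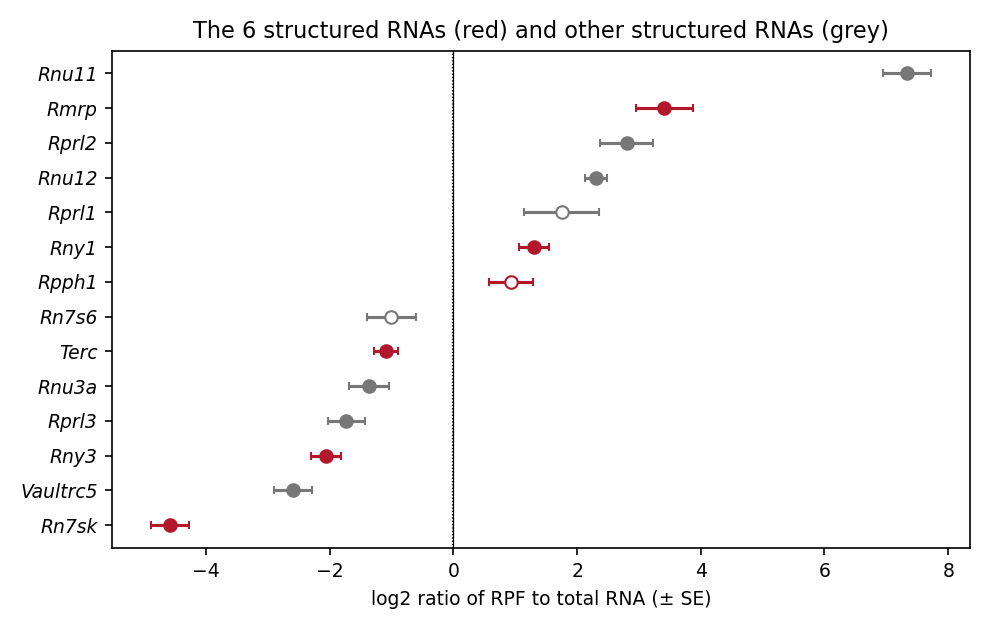
Log2 ratio of RPF to total RNA ± SE for the 6 structured RNAs (red) and other structured RNAs (grey); filled points passed the adjusted threshold of 0.05, open points did not, and the dotted line is the median of all genes, -0.02. Rnu11 (7.33) and Rn7sk (-4.58) stand at the ends, and Y RNAs and RNase P relatives lie on both sides of 0.

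Other structured RNAs also lay on both sides. From a list of 18 names, 5 genes were tested, 3 were below the count filter (Rnu2-10, Rnu7 and Rnu73b) and 10 were not analysed here, the signal recognition particle RNAs Rn7s1 and Rn7s2 among them. The minor spliceosome RNA Rnu11 had 97086 and 103468 counts in RPF and 772 and 932 in total RNA (ratio 7.33 ± 0.39, adjusted p = 0.00014). In both RPF libraries its counts were second to those of Rmrp among small noncoding RNAs. Rnu12, which pairs with U11 in the minor spliceosome, was higher too (2.31 ± 0.18, adjusted p = 0.000519). Lower were Vaultrc5, the RNA of the vault particle (-2.59 ± 0.31, adjusted p = 0.00132), and Rnu3a, a U3 small nucleolar RNA of ribosome assembly (-1.36 ± 0.32, adjusted p = 0.0144). Rn7s6 did not pass (-1.0 ± 0.39, adjusted p = 0.0784), and the median of the 5 was -1.0, against -0.02 over all tested genes. By class, with the 6 RNAs left out, 51 of 77 tested snRNA genes were higher and 12 lower. Of 151 snoRNA genes 37 were higher and 50 lower, and of 15 scaRNA genes 8 were higher and 2 lower. Of 22 genes of the misc_RNA class, to which Rn7sk, Terc, Rny1 and Rny3 belong, 0 were higher and 21 lower, 11 of them genes that share stretches with Rn7sk. Of 29 miRNA genes 17 were higher and 4 lower. Over all tested genes 20.5% were higher and 21.2% lower. A gene that passed the count filter through 1 fraction only had to differ, as with the snRNA gene Gm22155 (28626 and 23804 counts in RPF, 18 and 20 in total RNA), so these class counts are a description.

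The genes with the most similar profiles were found by Euclidean distance between centred log2 CPM over the 4 libraries, among 9020 genes with at least 10 CPM. For Rmrp they were the snoRNA Snord104 (distance 0.0816), an identifier without a GENCODE M21 name (0.141) and the snoRNA Snord69 (0.202). For Rn7sk they were the snoRNA Snora57 (0.294), the nuclear long noncoding RNA Neat1 (0.317) and the mitochondrial transfer RNA mt-Tt (0.318). For the other RNAs the nearest genes were protein-coding: Sept6, Usmg5 and Eras for Rpph1, Etaa1, Arhgap44 and Fbxw5 for Terc, Pdcl3, Tada3 and Txndc12 for Rny1, and Tbc1d20, Rc3h2 and Mlec for Rny3. Their distances were 0.0262 to 0.192. With 4 libraries in 2 fractions, such a distance mostly restates the ratio.

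The proteins that bind or make these RNAs were compared in the same fit. Of 59 genes in 5 lists, all of which were tested, 22 were higher and 6 lower (37.3% and 10.2%, beside 20.5% and 21.2% over all tested genes). Under library size scaling 6 partner genes were higher and 15 lower, beside 1223 higher and 4961 lower of all 13809 tested genes. These counts therefore change with scaling, for the partner genes and for all genes. Library size scaling moved the median of all genes from -0.02 to -0.46. Leaving out either total RNA library lowered the number called higher as well, in fits that hold no replicate spread for total RNA.

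Proteins of RNase P and RNase MRP were higher in 6 of 11 genes and lower in 1, with a median ratio of 0.56. Rpp21 was highest, with 313 and 249 counts in RPF and 85 and 121 in total RNA (1.88 ± 0.24, adjusted p = 0.00159). Rpp38 (1.0 ± 0.20), Rpp25l (0.77 ± 0.16), Rpp30 (0.70 ± 0.21), the scaffold Pop1 (0.62 ± 0.17) and Pop5 (0.56 ± 0.15) were higher as well. Rpp14 was lower (-0.58 ± 0.19, adjusted p = 0.0436), a call that 7 of 13 alternatives did not make. Pop5 and Rpp30 lost theirs under 5 alternatives each, Pop1 and Rpp25l under 3 each and Rpp38 under 2. Rpp21 kept its call under all 13, and of the 6 higher genes it alone did so under library size scaling.

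Of 7 genes of the 7SK particle and P-TEFb, 1 was higher and 2 lower, with a median of 0.04. Larp7, which binds the 3′ end of 7SK, was higher (0.93 ± 0.19, adjusted p = 0.00871 by edgeR), a call that 2 of 13 alternatives did not make. The cyclins Ccnt1 (-1.16 ± 0.14, adjusted p = 0.00149) and Ccnt2 (-1.07 ± 0.14, adjusted p = 0.00182), partners of the kinase Cdk9, were lower. Ccnt1 had 484 and 493 counts in RPF and 1493 and 1489 in total RNA.

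Telomerase and H/ACA proteins were higher in 5 of 10 genes and lower in 0 (median 0.58). Nop10 (0.96 ± 0.24, adjusted p = 0.019), Gar1 (0.96 ± 0.14, adjusted p = 0.00229) and Nhp2 (0.59 ± 0.19, adjusted p = 0.0462) belong to the H/ACA core. Shq1 (0.84 ± 0.15), an assembly factor, and Wrap53 (0.66 ± 0.17), which brings telomerase RNA to Cajal bodies, were higher too. The lowest was Tep1 (-0.23, adjusted p = 0.462). Nhp2 lost its call under 8 alternatives, Wrap53 under 4, and Nop10 and Shq1 under 2 each.

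Among 6 Y RNA binding proteins 3 were higher and 0 lower (median 0.55). Ssb, the La protein that binds the 3′ uridine run of polymerase III transcripts, had 2756 and 2268 counts in RPF and 1374 and 1096 in total RNA (1.47 ± 0.16, adjusted p = 0.00105). Ncl (1.17 ± 0.23) and Ptbp1 (0.62 ± 0.17) were higher, and Trove2, which encodes Ro60, did not pass (-0.69, adjusted p = 0.109 by edgeR). Ptbp1 lost its call under 5 alternatives and Ncl under 1.

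Of 25 genes of RNA polymerase III and its factors 7 were higher and 3 lower, with a median of 0.096. Brf2, the initiation factor for polymerase III promoters of the Rn7sk type (1.01 ± 0.16, adjusted p = 0.00343), was highest. Polr1c (0.94 ± 0.15), Polr3a (0.51 ± 0.13) and Polr3c (0.52 ± 0.14) encode polymerase subunits, Snapc1 (0.82 ± 0.23) and Snapc2 (0.83 ± 0.19) subunits of the snRNA activating complex, and Zfp143 (0.89 ± 0.24) a promoter factor. Polr3a, Polr3c and Snapc1 lost the call under 4 of 13 alternatives each, Zfp143 under 3 and Snapc2 under 2. Among the lower genes were the polymerase subunit Polr3f (-1.2 ± 0.15, adjusted p = 0.00171 by edgeR) and the octamer factor Pou2f1 (-1.08 ± 0.14, adjusted p = 0.00163).

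**Figure D4:**
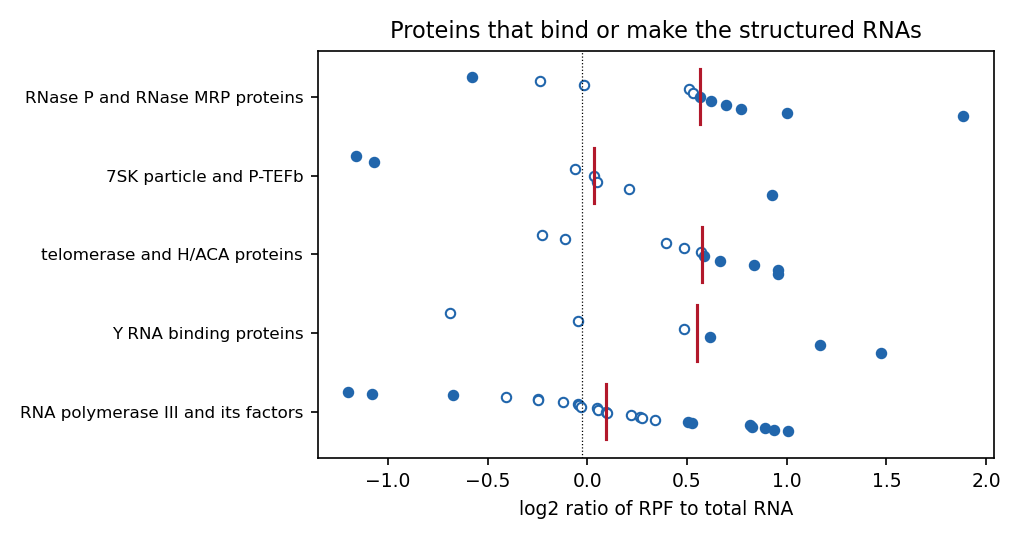
Log2 ratio of RPF to total RNA for the genes of 5 protein lists; each point is a gene, filled where it passed the adjusted threshold of 0.05, red lines are list medians and the dotted line is the median of all genes. RNase P and RNase MRP proteins run from -0.58 to 1.88, and RNA polymerase III and its factors from -1.2 to 1.01.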

How the data were processed

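Ribosome protected fragments and total RNA of knockdown cells were sequenced as 50 bp single-end reads, each RPF library 4 times, per the labels. The deposited files hold raw read counts per Ensembl gene. Per the submitters' processing notes, Bowtie 1.2.3, TopHat2 2.1.1, HTSeq 0.11.2, edgeR 3.26.8 and the mm9 build were used, with no annotation release or strand setting named in the sources used here. HTSeq's 5 closing tallies were left out of library sizes. GENCODE M21 named 32621 of 37311 identifiers (87.4%) and gave the sequences. Since its build differs, no coordinates are printed.

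The fractions were compared with edgeR 4.0.16 (TMM, filterByExpr with a minimum count of 10 and total of 15, quasi-likelihood test, Benjamini-Hochberg 0.05). The fit was first run on simulated counts with the same replicate spread for every gene. That run therefore does not test the fit at the spread of these data. The SE is the ratio divided by the square root of its F statistic. Alternatives used DESeq2 1.42.0, limma 3.58.1, other scalings and filters, a replicate block and left-out replicates. Folding used ViennaRNA 2.7.2. Depth was 7615277 to 9434987 gene counts, and Wilson 95% intervals and the floor of 3 counts (0.318 to 0.394 CPM) cover counting error only. Named genes were the 6 RNAs, Eif4a3, the 3 nearest profiles to each RNA, list genes that passed and each list's extremes. The values of 1 list gene that passed are not reported here. The members and lists were chosen with earlier results of these data known. Genes that share sequence with the 6 RNAs, and class counts, were added after values were seen.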

Additional observations from a re-analysis of the deposited data

Results flagged for a closer look

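Reads that fell on more than 1 gene are outside every comparison above, because HTSeq tallies them as ambiguous and counts them for no gene. That tally held 4.96% of all alignments in RPF replicate 1 and 8.58% in RPF replicate 2, against 0.755% and 0.719% in total RNA replicates 1 and 2. Both RPF libraries were above both total RNA libraries. Rmrp and Rpph1 overlap other annotated genes, and how many ambiguous reads belong to them was not tested.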

How the results depend on the processing

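Rmrp, Rn7sk, Terc, Rny1 and Rny3 kept direction and call under all 13 alternatives, with ratios of 2.97 to 3.54, -5.0 to -4.41, -1.52 to -0.84, 0.88 to 1.57 and -2.48 to -1.75. In the alternatives that left out 1 library, 1 fraction had only 1 library, so its replicate spread was not in the test. Rpph1 passed with no low-count filter (0.89), with DESeq2's test (0.95) and with the replicate block (0.86, adjusted p = 8.24e-11 by edgeR), and leaving out 1 library gave 0.42 to 1.32. The block fit gave Rpph1 an SE of 0.13, although its RPF replicates differed 1.86-fold and its total RNA replicates 1.04-fold. With 4 libraries that p-value leans on dispersion shared across genes and does not measure replicate agreement of Rpph1. The labels do not say what a shared replicate number marks, and 2 pairs are too few to settle it. Deviations of same-numbered libraries correlated at 0.412 across tested genes and 0.614 across those with at least 10 CPM, and the block moved the calls over all genes from 2835 higher and 2930 lower to 4257 and 4365. Partner genes called higher came to 6 with library size only, 6 against a fold of 1.5 (edgeR glmTreat) and 12 to 25 with 1 library left out, and those called lower to 15 with library size only. Against a fold of 1.5, calls over all genes fell to 1155 higher and 1549 lower, and without total RNA replicate 2 to 1720 and 1857. With library size only, calls over all genes were 1223 higher and 4961 lower. The Tep1 ratio was -0.58 without RPF replicate 1 and turned to 0.074 without RPF replicate 2. Of 790 values of 61 other named genes, 689 kept direction and call, 90 lost the call and 10 gained it. Relative to protein-coding counts, which hold none of them, counts of the 6 RNAs came to 7.42% in RPF and 2.63% in total RNA. Relative to gene counts other than Rmrp, with Rmrp still in the numerator, they came to 6.66% in RPF, and the other 5 alone to 0.899%. With the no-feature and ambiguous tallies added to the denominator, the share was 5.27% in RPF and 1.69% in total RNA. The cause of these changes was not tested. Terc, at 151 to 597 counts, is the RNA with the largest counting error relative to its share, although the SE of its ratio (0.20) was the smallest of the 6.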
